A study of Rattus norvegicus with 6 samples.

Results

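Fibroblast transcripts of the nerve sheath were followed in regenerated rat sciatic nerve through 10 genes, chosen by symbol from 23091 genes in the table. Of these genes, 8 are markers of the fibroblasts that surround nerves and vessels: Pdgfra, Cd34, Pi16, Dpp4, Cd248, Clec3b, Fbn1 and Mfap5. Crispld2 and Pamr1 were added because their levels tended lower with the conduit, so their difference between the groups is a description. Both were part of the test of all genes, but no p-value is given for them. Each symbol matched 1 entry of the table, and all 10 genes passed the filter on low counts. The 6 libraries came from wild-type male Sprague-Dawley rats with a sciatic nerve defect. NC, the control group of 3 libraries, had its wound closed with no implant. In the other group (3 libraries, named implant 1 to implant 3) the defect received the GDNF-Gel/HA-Mg conduit, so both groups carry the injury and no uninjured nerve was analysed here. The labels give neither the time after surgery nor the animals' age, nor whether each library came from a separate animal. The p-values therefore reflect the spread among these samples alone, which may be technical.

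A peripheral nerve is wrapped by the epineurium, a layer of collagen, fat and vessels whose main resident cell is a fibroblast that carries the receptor PDGFRA. The fibroblasts of the epineurium resemble the adventitial fibroblasts found around vessels of many organs, which are known for Pi16, Dpp4, Cd34 and Clec3b and for microfibril genes. After nerve injury, fibroblasts proliferate, lay down matrix between the stumps and signal to Schwann cells. None of these markers belongs to fibroblasts alone. Cd34 is also made by endothelial cells, Cd248 by pericytes and Dpp4 by T cells, and progenitor cells of fat share Pi16, Dpp4 and Pdgfra.

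The total count was 15897850 to 18491379 per library. A member had between 320 and 16840 counts in a library, so its counting error was at most 5.59% of the value. Within each group the coefficient of variation between libraries was above 5.59% for every member, except Dpp4 in NC (2.05%) and Cd248 with the conduit (3.55%). The haemoglobin share of the counts was 1.19%, 1.02% and 25.2% from NC 1 to NC 3, against 8.08%, 12.9% and 14.8% from implant 1 to implant 3. Mbp, which encodes myelin basic protein and serves as a check of the labelled tissue, was present in every library but ranged from 266 to 6100 CPM (a gene's counts scaled to the TMM-adjusted library size). Levels are in CPM throughout, which does not correct for gene length, so they are compared between libraries. Where CPM of several genes are summed or set in a ratio, only the change of that value between libraries is read.

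Crispld2 encodes a secreted protein with a CAP domain and LCCL domains, is made by mesenchymal cells, and is known as a gene that glucocorticoids induce in airway smooth muscle. Pamr1 encodes a secreted protein with CUB, EGF-like and Sushi domains and a protease-like domain that lacks activity, and takes its name from muscle regeneration. The 250 bases before the annotated start of each gene are printed below because these are the members that were low together in the implant libraries. Both are from RefSeq on the rat build GRCr8, plus strand, Crispld2 at chr19:64978706-64978955 and Pamr1 at chr3:109343796-109344045, with CG dinucleotides in capitals.
Crispld2: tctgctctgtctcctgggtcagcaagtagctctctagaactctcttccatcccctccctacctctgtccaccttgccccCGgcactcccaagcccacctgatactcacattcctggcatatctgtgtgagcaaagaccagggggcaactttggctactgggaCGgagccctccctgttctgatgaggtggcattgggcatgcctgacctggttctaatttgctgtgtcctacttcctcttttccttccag
Pamr1: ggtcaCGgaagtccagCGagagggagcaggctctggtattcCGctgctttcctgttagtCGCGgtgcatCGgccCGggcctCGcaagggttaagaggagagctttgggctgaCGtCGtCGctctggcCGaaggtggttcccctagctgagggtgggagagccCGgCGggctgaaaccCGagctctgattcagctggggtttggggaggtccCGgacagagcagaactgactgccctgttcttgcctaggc
The Pamr1 stretch holds 16 CG dinucleotides and 63.2% G and C, the Crispld2 stretch 2 and 55.2%, and the median over 33469 promoters of the same length was 5 and 51.2%. A search on both strands for 5 motifs found 1 match in Crispld2 and none in Pamr1. The match was a CCAAT box (CCAAT) on the opposite strand. It reads attgg in the printed stretch, from 59 bases before the annotated start. The other motifs were the TATA box (TATAAA), the GC box (GGGCGG), the E-box (CACGTG) and the AP-1 site (TGACTCA). Of all promoters, 34.0% hold CCAAT, 12.9% TATAAA, 30.5% GGGCGG, 5.59% CACGTG and 4.05% TGACTCA. These 2 stretches thus shared none of the motifs searched. The Crispld2 stretch ends in a pyrimidine-rich run followed by AG, letters like those of a splice acceptor, so it may lie before an internal exon and may not be the main promoter. No measurement here bears on where transcription began.

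Crispld2 measured 151, 159 and 123 CPM across libraries 1 to 3 without the conduit, against 82.0, 91.3 and 78.9 CPM across libraries 1 to 3 with it. All later values are given in this order of libraries. Every NC library lay above every implant library, and the lowest NC level was 1.35 times the highest implant level. The group means were 144 ± 18.9 CPM (SD, n = 3) in NC and 84.1 ± 6.42 CPM (n = 3) with the conduit, a log2 fold change of -0.78 ± 0.14 (SE), or 0.583 times the NC level. NC 3, the library with the most haemoglobin, was the lowest of the NC libraries for Crispld2.

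Pamr1 measured 34.9, 37.2 and 45.8 CPM without the conduit, against 27.3, 17.4 and 19.9 CPM with it. Its groups did not overlap either, and the lowest NC level was 1.28 times the highest implant level. The means were 39.3 ± 5.74 CPM (SD, n = 3) in NC and 21.5 ± 5.15 CPM (n = 3) with the conduit, a log2 fold change of -0.87 ± 0.21 (SE), or 0.547 times the NC level. Within the groups the 2 genes did not keep the same order: NC 3 was the lowest NC library for Crispld2 and the highest for Pamr1, and implant 2 was the highest implant library for Crispld2 and the lowest for Pamr1.

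The fold changes of Crispld2 and Pamr1 were below those of most genes, with 281 and 221 of 13999 tested genes further down. The groups did not overlap, with NC above, in 2.88% of all genes, and the rule that chose this pair used the same contrast, so nothing is read from their count. In the test of all genes by edgeR (quasi-likelihood, Benjamini-Hochberg adjustment), 0 genes were called at an adjusted p under 0.05, which is 0% of those tested, while 241 (1.72%) had an unadjusted p under 0.05. DESeq2 called 11 genes and limma-voom 0. Leaving out NC 3 gave log2 fold changes of -0.88 for Crispld2 and -0.75 for Pamr1, and scaling without red cell genes gave -0.77 and -0.87.

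**Figure D1:**
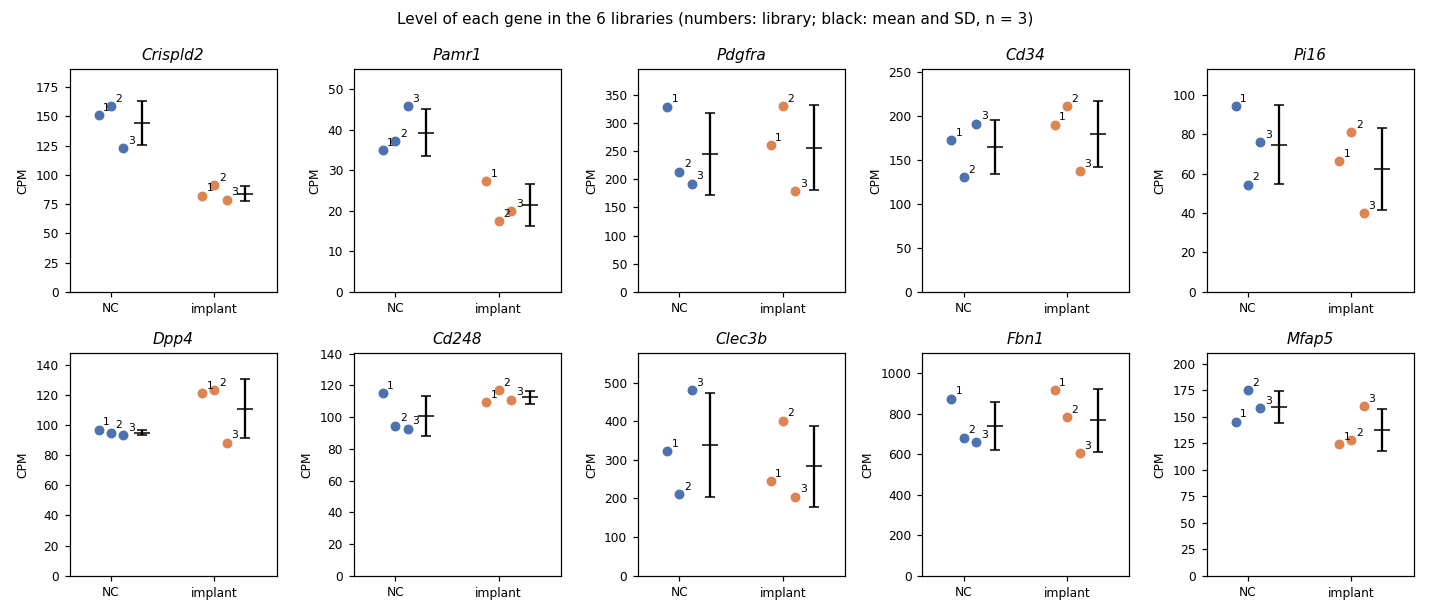
Level of the 10 genes in each library, in CPM on a linear axis from 0, with NC libraries in blue, implant libraries in orange, the library number beside each point, and the mean ± SD (n = 3) in black. For Crispld2 and Pamr1 the 3 NC points lie above the 3 implant points, and for the other 8 genes the groups overlap.

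None of the 8 markers separated the groups. edgeR called 0 of 8 (0% of all genes were called), 0 of 8 had an unadjusted p under 0.05 (1.03% of all genes did on the higher side and 0.693% on the lower), and in 0 of 8 did the groups not overlap (2.81% of all genes on the higher side and 2.88% on the lower, 5.69% in all). DESeq2 and limma-voom called 0 of 8 as well, since the lowest adjusted p of any marker under any setting was 0.963. Their median log2 fold change was 0.06, with 5 above 0 and 3 below, against a median of -0.01 over all 13999 genes, 53.0% of which were below 0. Over all 10 genes the median was -0.08, a value that includes the pair chosen for being low. The approximate 95% interval excluded a 2-fold change in either direction for 6 of the 8, all but Pi16 and Clec3b.

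Among the surface receptors, Pdgfra, the receptor for PDGF-A and PDGF-C that defines most fibroblasts, measured 329, 213 and 193 CPM without the conduit, against 260, 330 and 179 CPM with it. The highest NC library and the highest implant library were thus nearly level. Its log2 fold change was 0.07 ± 0.30 (SE; 95% interval -0.67 to 0.81; edgeR adjusted p 1.00). Cd34, a sialomucin of fibroblasts and endothelium, measured 173, 131 and 192 CPM without the conduit, against 190, 211 and 137 CPM with it. The low libraries were NC 2 and implant 3, and the log2 fold change was 0.12 ± 0.22 (SE; interval -0.42 to 0.67; edgeR adjusted p 1.00).

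Endothelial cells also make Cd34, and their list of 14 genes had the same lowest NC library. Its summed level ranged from 1273 to 2891 CPM in NC, lowest in NC 2 and highest in NC 3, and from 1920 to 2474 CPM with the conduit, lowest in implant 3 and highest in implant 2. Cd34 took the same order of libraries within each group. The part of endothelium in the Cd34 values was not tested.

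Dpp4, a membrane peptidase that trims incretins and chemokines, measured 96.9, 94.8 and 93.0 CPM without the conduit, against 121, 123 and 88.0 CPM with it. The NC libraries were close, with a coefficient of variation of 2.05%, while implant 3 lay apart from the other implant libraries and below all NC libraries. The log2 fold change was 0.22 ± 0.16 (SE; interval -0.17 to 0.61; edgeR adjusted p 1.00). T cells also make Dpp4, and Cd3e, a part of the T cell receptor complex, measured 3.58, 2.83 and 6.29 CPM without the conduit, against 5.39, 5.33 and 2.77 CPM with it.

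Cd248 (endosialin), a C-type lectin of stromal cells and pericytes, measured 115, 94.5 and 92.8 CPM without the conduit, against 109, 117 and 111 CPM with it. NC 1 lay among the implant libraries, which kept the groups from separating. The log2 fold change was 0.16 ± 0.13 (SE; interval -0.16 to 0.47; edgeR adjusted p 1.00), the most precise of the 10. The list of pericyte and mural genes, other cells that make Cd248, had a summed level of 1104 to 1151 CPM in NC and 1024 to 1230 CPM with the conduit.

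Of the secreted markers, Pi16, a CAP-domain protein like Crispld2, measured 94.2, 54.2 and 75.8 CPM without the conduit, against 66.2, 81.0 and 39.8 CPM with it. Implant 3 was the lowest library and NC 1 the highest, with the rest mixed. Its log2 fold change was -0.26 ± 0.32 (SE; interval -1.04 to 0.51; edgeR adjusted p 1.00). Clec3b (tetranectin), a plasminogen-binding lectin, measured 322, 211 and 480 CPM without the conduit, against 244, 401 and 204 CPM with it. NC 3 and implant 2 were high and NC 2 and implant 3 low, so that the spread within each group exceeded the difference of the means, and the log2 fold change was -0.26 ± 0.38 (SE; interval -1.19 to 0.68; edgeR adjusted p 1.00).

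Fibrillin-1 (Fbn1), the core of the microfibrils that carry elastin and hold latent TGF-beta, measured 874, 681 and 659 CPM without the conduit, against 916, 784 and 605 CPM with it. Implant 1 was highest and implant 3 lowest, on both sides of all NC libraries. Its log2 fold change was 0.06 ± 0.22 (SE; interval -0.48 to 0.60; edgeR adjusted p 1.00). Mfap5, a small glycoprotein that binds fibrillin, measured 145, 175 and 158 CPM without the conduit, against 124, 128 and 160 CPM with it. Only implant 3 kept its groups from separating, with implant 1 and implant 2 below every NC library, and the log2 fold change was -0.22 ± 0.15 (SE; interval -0.59 to 0.16; edgeR adjusted p 1.00).

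The direction of 4 of these 8 estimates depended on a single library, though none was called. Pdgfra turned to -0.03 without NC 2, -0.08 without NC 3 and -0.16 without implant 2. Cd34 turned to -0.02 without NC 2 and -0.01 without implant 2, and Fbn1 to -0.02 without NC 3, to -0.08 without implant 1 and to just below 0 without NC 2. Clec3b turned to 0.08 without NC 3. Pi16, Dpp4, Cd248 and Mfap5 kept their sign without any 1 library.

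**Figure D2:**
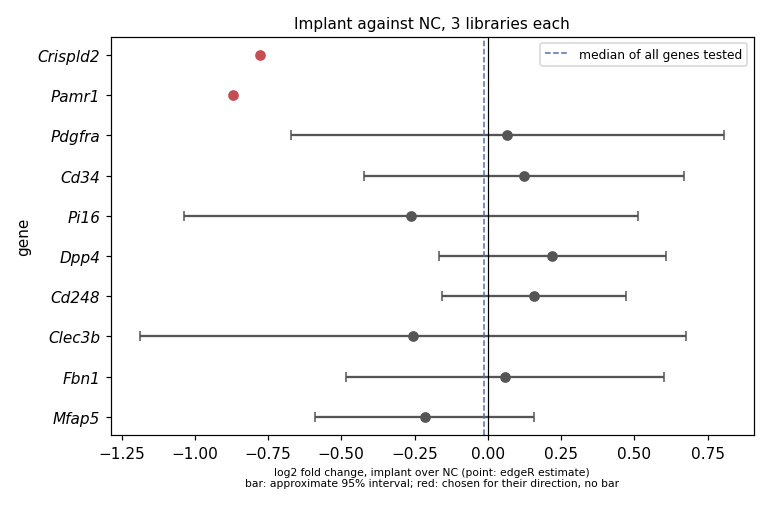
Log2 fold change of each gene, implant over NC, as edgeR estimated it from 3 libraries a group, with approximate 95% intervals for the 8 markers and the median of all genes as a dashed line. The intervals of all 8 markers span 0, and Crispld2 (-0.78) and Pamr1 (-0.87), drawn in red with no interval, were chosen for their direction.

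Which library was high or low for the 8 markers did not follow the group. Implant 3 was the lowest library for 5 of them (Pdgfra, Pi16, Dpp4, Clec3b and Fbn1), and implant 2 the highest for 4 (Pdgfra, Cd34, Dpp4 and Cd248). Their summed level was 2149, 1654 and 1943 CPM without the conduit, against 2032, 2174 and 1524 CPM with it. The sum was lowest in NC 2 and implant 3 of their groups, though gene by gene NC 3 was the lowest NC library for Pdgfra, Dpp4, Cd248 and Fbn1, and Mfap5 was highest of all in NC 2. In bulk RNA, fewer fibroblasts and less RNA per fibroblast cannot be told apart.

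Fbn1, at 605 to 916 CPM, was the largest part of the summed marker level, so the sum follows Fbn1 most. Set against this sum, Crispld2 stayed low in the implant libraries. It was 7.03%, 9.59% and 6.32% of the summed marker level without the conduit, against 4.04%, 4.20% and 5.18% with it. Pamr1 was 1.63%, 2.25% and 2.36% of the sum without the conduit, against 1.34%, 0.800% and 1.30% with it. The groups did not overlap for either ratio. The means were 7.65 ± 1.72% (SD, n = 3) and 4.47 ± 0.618% (n = 3) for Crispld2 and 2.08 ± 0.396% and 1.15 ± 0.303% for Pamr1. The ratios rest on the same libraries that chose the pair, so they describe it and test nothing.

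**Figure D3:**
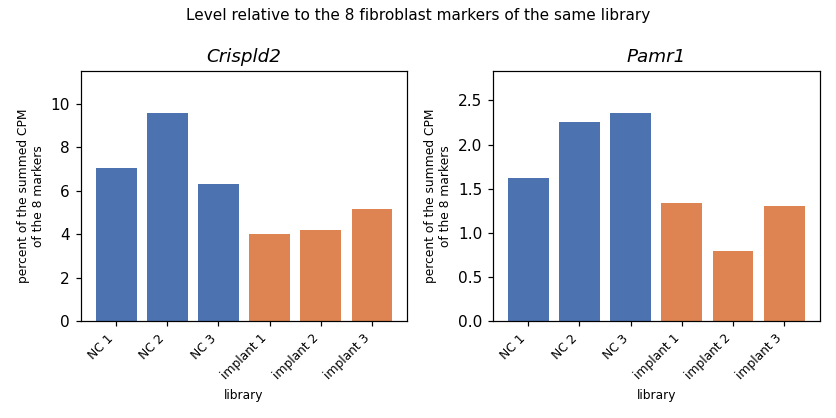
Level of Crispld2 and Pamr1 as a percent of the summed CPM of the 8 markers in the same library, on axes from 0, with NC in blue and implant libraries in orange. The lowest NC bars are 6.32% and 1.63%, and the highest implant bars are 5.18% and 1.34%.

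Other lists of fibroblast genes were read beside the members, by counts and medians. Of 23 tested markers of epineurial and adventitial fibroblasts, 7 had a positive and 16 a negative log2 fold change, with a median of -0.13, and edgeR called 0 (2 had an unadjusted p under 0.05, both lower, against 0.693% of all genes). Those were Adamts5, a protease that cleaves aggrecan and versican, and Sema3c, a secreted semaphorin. Adamts5 measured 65.0, 70.9 and 83.3 CPM without the conduit, against 49.2, 52.8 and 46.0 CPM with it (log2 fold change -0.57 ± 0.13 SE, edgeR adjusted p 1.00), and it was known to be low when the list was made. Sema3c measured 241, 289 and 254 CPM without the conduit, against 207, 200 and 192 CPM with it (log2 fold change -0.39 ± 0.13 SE, edgeR adjusted p 1.00). In both genes all NC libraries lay above all implant libraries, as in 2.88% of all genes. Dpt, which encodes dermatopontin and is a common marker of this fibroblast class, overlapped widely, with 653, 250 and 755 CPM without the conduit, against 372, 568 and 394 CPM with it.

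Of 19 tested genes shared by most fibroblasts, 6 were positive and 13 negative, with a median of -0.14 and 0 called by edgeR (0 at an unadjusted p under 0.05). Gsn, which encodes the actin-severing protein gelsolin, was the only one whose groups did not overlap (2.88% of all genes did not overlap on the lower side, 5.69% in all). It measured 5116, 4210 and 7956 CPM without the conduit, against 3312, 3926 and 3882 CPM with it (log2 fold change -0.64 ± 0.32 SE, edgeR adjusted p 1.00). Genes of activated fibroblasts had 7 positive and 9 negative members, a median of -0.08 and 0 called by edgeR (0 at an unadjusted p under 0.05). Postn, a matrix protein of activated fibroblasts, ranged from 371 to 2709 CPM in NC and from 522 to 1686 CPM with the conduit. Tcf21, a transcription factor of some fibroblasts, was at or near 0 in all libraries and was not tested.

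Signalling and structural partners of the members were read in the same way. Of 14 genes of the PDGF pathway, 3 were positive and 11 negative (median -0.08, 0 called by edgeR, 0 at an unadjusted p under 0.05). Among the ligands, Pdgfa measured 21.8, 23.1 and 10.3 CPM without the conduit, against 22.7, 27.3 and 13.6 CPM with it, low in library 3 of each group. Pdgfd, a ligand of the PDGFRB receptor, measured 46.2, 39.4 and 63.2 CPM without the conduit, against 36.1, 38.2 and 37.6 CPM with it, and was the only gene of the list whose groups did not overlap (log2 fold change -0.41 ± 0.19 SE, edgeR adjusted p 1.00), against 2.88% of all genes on the lower side and 5.69% in all. Pdgfrb averaged 171 ± 35.7 CPM (SD, n = 3) in NC and 153 ± 11.8 CPM (n = 3) with the conduit.

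Of 23 genes of elastic fibres and microfibrils, the structures that hold FBN1 and MFAP5, 8 were positive and 15 negative (median -0.09, 0 called by edgeR, 0 at an unadjusted p under 0.05), and no gene separated the groups. Eln, which encodes tropoelastin, averaged 105 ± 44.7 CPM (SD, n = 3) in NC and 81.6 ± 16.7 CPM (n = 3) with the conduit. Ltbp4, a latent TGF-beta binding protein of microfibrils, measured 457, 310 and 305 CPM without the conduit, against 381, 332 and 258 CPM with it. Both overlapped between the groups.

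Relatives of Crispld2 and Dpp4 by protein family overlapped between the groups. Crispld1, its closest relative, measured 6.49, 10.1 and 7.16 CPM without the conduit, against 9.37, 3.21 and 11.0 CPM with it, a log2 fold change of -0.01 ± 0.47 (SE). Of the other CAP genes, Glipr1, Glipr2 and Pi15 were tested, and Glipr1l1, Clec18a and R3hdml had 0 counts in all libraries. Fap, the relative of Dpp4 known from activated fibroblasts, measured 107, 49.0 and 79.8 CPM without the conduit, against 101, 107 and 47.2 CPM with it.

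Because Crispld2 is a known target of glucocorticoids, 14 genes of that response were read in the same libraries. The list had 7 positive and 7 negative genes with a median of 0.07, and edgeR called 0 (0 at an unadjusted p under 0.05). Fkbp5, a co-chaperone strongly induced by glucocorticoids, measured 37.7, 23.4 and 31.2 CPM without the conduit, against 41.9, 47.5 and 36.6 CPM with it. In 2 of the 3 implant libraries it lay above every NC library. Klf9, a transcription factor of the same response, lay higher in every implant library, with 29.7, 34.3 and 34.6 CPM without the conduit, against 48.1, 36.4 and 35.0 CPM with it (log2 fold change 0.28 ± 0.16 SE, edgeR adjusted p 1.00). Nr3c1, the glucocorticoid receptor itself, measured 245, 267 and 272 CPM without the conduit, against 226, 216 and 237 CPM with it, with no overlap but a small difference (log2 fold change -0.21 ± 0.12 SE, edgeR adjusted p 1.00). The gene of this list with the highest mean CPM was Glul. It measured 440, 498 and 1253 CPM without the conduit, against 531, 639 and 717 CPM with it. Its groups overlapped, with a log2 fold change of -0.22 ± 0.43 (SE). Of all genes, 2.81% did not overlap on the higher side, as Klf9, and 2.88% on the lower, as Nr3c1. The part of glucocorticoids in the Crispld2 values was not tested.

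Transcripts of adipocytes and skeletal muscle varied widely between the libraries. The adipocyte list, all 14 genes of which were detected, summed to 5516, 2431 and 15687 CPM without the conduit, against 3017, 5488 and 3901 CPM with it, and all 14 had a negative log2 fold change (median -0.93). Skeletal muscle genes, 13 of 13 tested positive, summed to 39.5, 456 and 1535 CPM without the conduit, against 102, 1868 and 9278 CPM with it. Leukocyte genes had 12 of 14 positive with a median of 0.33 and summed to 697 to 1382 CPM in NC and 914 to 1241 CPM with the conduit. Their members Ptprc, the pan-leukocyte antigen, and Csf3r, a receptor of neutrophils, lay higher in every implant library (log2 fold change 0.34 ± 0.14 and 1.36 ± 0.58 SE). Csf3r did so only narrowly, with 21.6 CPM in NC 3 and 21.8 CPM in implant 3. Tnnt1, a troponin of slow muscle, was also only narrowly higher (0.940 CPM in the highest NC and 0.943 CPM in the lowest implant library, log2 fold change 0.57 ± 0.44 SE). Of 10 tested tendon and cartilage genes 1 was positive and 9 negative (median -1.11), and Fmod, a collagen-binding proteoglycan, was the only one without overlap, lower with the conduit (-1.04 ± 0.18 SE). The list summed to 1408, 815 and 1132 CPM without the conduit, against 1217, 967 and 679 CPM with it. Its mean log2 CPM, centred gene by gene, was 0.27, -0.26 and 1.22, against -0.62, -0.23 and -0.39. By that measure NC 3 was the highest library, and NC 2 lay among the implant libraries. edgeR called 0 genes of these 4 lists. At an unadjusted p under 0.05 there were 2 of the tendon and cartilage list, both lower (against 0.693% of all genes), and 0 of the others. The groups did not overlap in 5.69% of all genes. The part of these cells in the result was not tested.

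The lists also differed in which libraries were high. In mean log2 CPM, centred gene by gene, the 8 markers stood at 0.17, -0.19 and 0.04 without the conduit, against 0.04, 0.22 and -0.29 with it, and the pan-fibroblast list at 0.36, -0.20 and -0.07, against 0.03, 0.22 and -0.33. Both lists were lowest in implant 3 and next lowest in NC 2, the 2 libraries with the highest values of the myelin and Schwann list (1.73 and 2.56), while implant 1, with a myelin value of 1.49, was not low in either (0.04 and 0.03). Crispld2 and Pamr1 together stood at 0.37, 0.45 and 0.42 without the conduit, against -0.25, -0.49 and -0.50 with it, so in NC 2 the pair was high where the markers were low. Endoneurial genes took another order, at 0.04, 0.48 and -0.72 without the conduit, against 0.47, -0.19 and -0.08 with it.

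**Figure D4:**
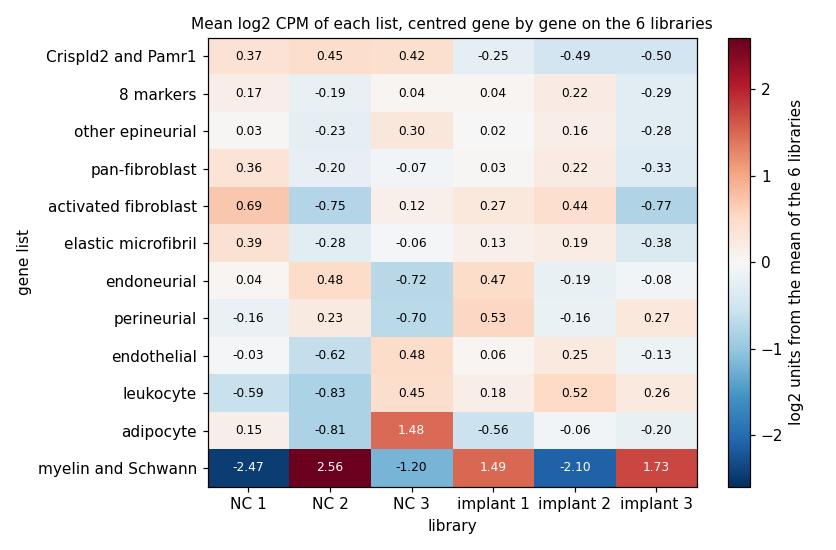
Mean log2 CPM of each gene list in each library, after each gene was centred on its mean of the 6 libraries, with red above and blue below that mean and the value printed in each cell. The row of Crispld2 and Pamr1 is positive in all NC and negative in all implant libraries, while the row of the 8 markers changes sign within both groups.

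The genes most like Crispld2 over the 6 libraries were found by the mean absolute difference of centred log2 CPM among 11213 genes. They were Nqo2 (0.0944 log2 units), Slc4a4 (0.134), Armh4 (0.139), Hyal1 (0.144) and Rrad (0.154), against a median of 0.415 over all genes compared. For Pamr1 they were Bcar3 (0.157), Cyb561d2 (0.167), Agmo (0.181), Acaca (0.186) and Gnai1 (0.214), against a median of 0.465. No gene was in both lists, and no other member was in either. Among the members themselves the closest pair was Dpp4 and Fbn1 (0.119), followed by Cd248 and Fbn1 (0.143) and by Dpp4 and Cd34 (0.150). The median over all genes compared was 0.247 for Dpp4, 0.270 for Fbn1, 0.213 for Cd248 and 0.286 for Cd34. The member nearest to Crispld2 was Mfap5 (0.275), ahead of Pamr1 (0.284).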

How the data were processed

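Polyadenylated RNA of 6 libraries was sequenced, per the labels' protocols, with a kit that does not mark the strand. RefSeq (GRCr8) lists a non-coding gene that overlaps Pi16, Dpp4, Cd34 and Fbn1, so reads of such pairs may be mixed. Tools listed in the submitters' processing notes, without their roles, are HISAT2, Bowtie2 (version 2.2.8), DESeq2 and StringTie (version 1.3.1). Neither the counter nor the build or annotation is given in any source used. The authors deposited expected counts (estimated counts) per gene, not normalized as far as their totals show, and 1898 to 2085 values per library were not whole. Treated columns are named Gel_HA-Mg and were matched to the GDNF-Gel/HA-Mg samples.

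Counts were rounded, filtered with filterByExpr (13999 genes left), scaled by TMM and tested with edgeR 4.0.16 under R 4.3.3 (quasi-likelihood test, two-sided, group only, Benjamini-Hochberg adjustment over all genes, threshold 0.05). The SE is the log2 fold change over the root of F, so the 95% intervals are approximate. Alternatives were RLE, upper quartile and red-cell-free scaling, other filters, DESeq2 1.42.0, limma-voom (limma 3.58.1), a replicate block, and leaving out each library. The fit was tested on simulated data. The members and the 20 gene lists (267 symbols, 259 in the table) were chosen with earlier results of these data known. The rule for names took up to 3 genes per list, first those whose groups did not overlap and then those with the highest mean CPM, and the 5 genes most like Crispld2 and Pamr1. Not every gene that it took is described. Dpt, Cd3e, Pdgfa, Pdgfrb, Eln, Crispld1, Fap, Fkbp5 and Tcf21, and the genes nearest to other markers, were named after their values were seen. Promoters were found for 8 of the 10 members. Figures were drawn with matplotlib 3.10.9.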

Additional observations from a re-analysis of the deposited data

How the results depend on the processing

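The count of 0 called genes in each direction held under edgeR with RLE, upper quartile and red-cell-free scaling, with no filter, with the stricter filter, with the replicate block, under limma-voom and without any 1 library, while DESeq2 called 5 higher and 6 lower. At an unadjusted p under 0.05 edgeR found 241 genes, but 574 without NC 2 and 559 without NC 3. The cause was not tested. Under the other scalings, filters and tools every member kept its sign, with Crispld2 between -0.79 and -0.77 and Pamr1 between -0.89 and -0.87. Crispld2 and Pamr1 were chosen for being low in these same libraries. Their values under other settings, or with a library left out, therefore describe the pair and test nothing.

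Leaving out each library in turn gave log2 fold changes of -0.88 to -0.71 for Crispld2, -1.07 to -0.73 for Pamr1, -0.155 to 0.35 for Pdgfra, -0.0215 to 0.28 for Cd34, -0.0771 to 0.21 for Fbn1 and -0.59 to 0.0805 for Clec3b. The median ran from -0.16 to 0.07 over the 10 genes and from -0.08 to 0.19 over the 8 markers.

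The labels do not say whether same-numbered libraries of the 2 groups were paired. The correlations of their deviations across genes were 0.10, -0.72 and 0.06, where different numbers reached 0.52. A shared preparation of same-numbered libraries was not tested. With the replicate number as a block, edgeR called 0 genes, 188 had an unadjusted p under 0.05, and the median was -0.09 over the 10 genes and 0.06 over the 8 markers. With 3 libraries a group, differences inside the approximate intervals given were not excluded.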

Other observations

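Some of the genes with the profile nearest to a marker were picked for description after their values were seen. Over the 6 libraries, Mtmr11 was nearest to Pdgfra (mean absolute difference 0.0533 log2 units, median over all genes 0.365). Dkk3, a secreted glycoprotein, was among the 5 genes nearest to Pdgfra (0.0644). Cyp4f39 was nearest to Pi16 (0.0626, median 0.390). Serpinh1, the collagen chaperone, and Ltbp3, a latent TGF-beta binding protein, were among the 5 nearest to Pi16 (0.0807 and 0.0816). Rarres2, which encodes chemerin, a product of fat and stromal cells, was nearest to Clec3b (0.0654, median 0.448). Its log2 fold change was -0.26 as for Clec3b, a likeness that follows from the choice by profile.

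Of 9 tested genes of the perineurial list, 6 were positive and 3 negative (median 0.29, 0 called by edgeR). At an unadjusted p under 0.05 there was 1, on the higher side, against 1.03% of all genes. Stra6, the cell-surface receptor for retinol-binding protein, was the one gene of the perineurial list to lie higher in every implant library, with 13.9, 9.83 and 4.48 CPM without the conduit, against 45.2, 23.0 and 25.8 CPM with it (log2 fold change 1.73 ± 0.47 SE, edgeR adjusted p 1.00). Casq2, a calcium-binding protein, lay lower in every implant library, with 12.8, 20.8 and 13.2 CPM without the conduit, against 12.4, 8.20 and 10.7 CPM with it (log2 fold change -0.58 ± 0.26 SE, edgeR adjusted p 1.00). Of all genes, 2.81% had the implant libraries above all NC libraries and 2.88% below.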
